A study of Mus musculus with 4 samples.

Results

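The genes described here encode the membrane fusion machinery of regulated secretion, measured in insulin reporter-positive cells that were made from mouse gallbladder. They comprise the SNARE proteins, the synaptotagmins and their relatives, and the proteins that dock, prime and release vesicles. Members were chosen by gene symbol alone, from the syntaxin, VAMP, SNAP-25, synaptotagmin, synaptotagmin-like, Stxbp, Unc13, Rims, complexin, Sv2, synapsin and rabphilin families together with Syp, Pclo and Bsn. The deposited table held 76 such genes of 20377 in all. Of these, 75 were read in at least 1 library and could be tested.

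The 4 libraries, replicates 1 to 4, form 1 group, named rGBC2. Primary gallbladder cells came from 8 weeks old mice of C57BL/6 background with the MIP-GFP transgene, genotype B6.Cg-Tg(Ins1-EGFP)1Hara/J, in which an Ins1 promoter drives a green fluorescent protein, and were expanded in culture. Pdx1, Ngn3, Mafa and PAX6 were supplied as reprogramming factors over 10 days together with compounds that the labels leave unnamed, and reporter-positive cells were sorted for total RNA. All libraries share this treatment, the labels do not say whether they came from separate animals or cultures, and p-values therefore measure only the spread between these 4 libraries, part of which may be technical. Because each library pools many sorted cells, fewer cells of a type and less RNA per cell cannot be told apart.

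Fusion of a secretory granule with the plasma membrane is driven by a bundle of SNARE helices. A VAMP on the granule pairs with a syntaxin and a SNAP-25-type protein on the target membrane, and a Munc18-type protein of the Stxbp family holds the syntaxin ready. Unc13 and Rims proteins prime the granule, complexins clamp the bundle, and synaptotagmins with calcium-binding C2 domains trigger fusion when calcium enters. In pancreatic beta cells this route releases insulin, and close relatives of the same proteins serve constitutive traffic, endosomes, the Golgi and autophagy in every cell.

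Values are RPKM, reads scaled to transcript length and library size, and levels of different genes are set side by side on that scale. The scaling does not correct for base composition, and 1 transcript stands for each gene symbol. Depth, estimated from the steps of low values, ran from 22050000 reads in replicate 2 to 33250000 in replicate 4. For a 1 kilobase transcript, 3 reads amounted to 0.124, 0.136, 0.122 and 0.0902 RPKM, and these limits cover counting error only. Replicates 1 and 2 held reads of 4 of 4 Y-linked genes (Eif2s3y at 48.5 and 44.7 RPKM), which were listed at 0 in replicates 3 and 4. Replicates 3 and 4 also stood closest to each other, with an SD of log2 ratios of 0.16 across genes against 0.55 to 0.75 for the other pairs. Replicates 3 and 4 still differed by more than counting noise, since 41.0% of genes had a chi-square p under 0.05. That comparison cannot show whether the 2 came from separate animals or cultures. Both were kept as separate samples, so n = 4 counts libraries. The reporter gene's family was present, with Ins2 at 1091, 3704, 3851 and 4240 RPKM in replicates 1 to 4. Ins1 was at 107, 222, 481 and 523 RPKM. The other markers listed for the sorted cells were Iapp, at 2075, 4871, 4529 and 5201 RPKM, and Chga, at 33.1, 23.7, 471 and 470 RPKM. Ins1 and Chga were thus higher in replicates 3 and 4 than in replicates 1 and 2.

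Sequences upstream of the annotated start are shown for 5 members, and none was at hand for Syt13, the highest member, or for Vamp2. Sytl4, Vamp8 and Snap47 led their families by level. Syt3 was among the members with the largest increase, and Sytl5 the member with the largest decrease, from replicates 1 and 2 to replicates 3 and 4. Each is the 250 bases before the start, 5′ to 3′ on the gene's strand, from RefSeq on GRCm38.p6. That build differs from the mm9 build of the expression table. Capitals mark matches to the motifs searched, which are listed after the sequences.

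Sytl4 (chrX:133981813-133982062, minus strand): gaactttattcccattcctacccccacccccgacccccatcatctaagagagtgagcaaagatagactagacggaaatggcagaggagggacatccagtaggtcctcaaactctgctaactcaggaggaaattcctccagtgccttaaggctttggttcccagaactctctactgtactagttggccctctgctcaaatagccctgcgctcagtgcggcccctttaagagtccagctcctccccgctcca
Vamp8 (chr6:72390668-72390917, minus strand): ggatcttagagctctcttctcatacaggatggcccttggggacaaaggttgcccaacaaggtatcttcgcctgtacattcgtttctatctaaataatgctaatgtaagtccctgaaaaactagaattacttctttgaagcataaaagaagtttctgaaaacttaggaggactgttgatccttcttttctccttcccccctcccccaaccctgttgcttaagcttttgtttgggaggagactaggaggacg
Snap47 (chr11:59450035-59450284, minus strand): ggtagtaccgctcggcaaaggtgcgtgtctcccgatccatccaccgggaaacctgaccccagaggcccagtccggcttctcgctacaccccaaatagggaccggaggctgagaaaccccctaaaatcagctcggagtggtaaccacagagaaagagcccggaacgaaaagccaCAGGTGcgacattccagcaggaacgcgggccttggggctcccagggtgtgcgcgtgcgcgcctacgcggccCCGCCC
Syt3 (chr7:44383876-44384125, plus strand): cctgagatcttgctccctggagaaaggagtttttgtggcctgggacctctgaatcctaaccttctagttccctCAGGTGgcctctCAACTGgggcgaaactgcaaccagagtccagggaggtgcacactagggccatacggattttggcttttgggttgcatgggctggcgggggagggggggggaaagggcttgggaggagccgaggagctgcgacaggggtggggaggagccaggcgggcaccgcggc
Sytl5 (chrX:9885371-9885620, plus strand): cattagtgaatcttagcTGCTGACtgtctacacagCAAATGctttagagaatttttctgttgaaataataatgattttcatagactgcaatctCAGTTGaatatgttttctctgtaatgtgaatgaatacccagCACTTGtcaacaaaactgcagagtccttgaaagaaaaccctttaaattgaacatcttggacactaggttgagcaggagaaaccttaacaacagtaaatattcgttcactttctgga

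The motifs, searched on both strands, were the E-box CANNTG with the Neurog3 and Neurod1 type CAGATG inside it, the homeodomain site TAATTA, the Maf core TGCTGAC, the TATA box TATAAA and the GC box GGGCGG. Promoter rows were at hand for 58 of the 76 members, 75 starts in all. An E-box lay in 70.7% of member starts against 62.2% of the 17573 starts of genes in the table, and CAGATG in 8.00% against 12.1%. The GC box lay in 54.7% against 45.1%, TATAAA in 5.33% against 11.3%, TGCTGAC in 2.67% against 3.59% and TAATTA in 1.33% against 4.25%. The Snap47 window held an E-box 77 bases and a GC box 6 bases before the start, and 21 CG pairs against a median of 11. Sytl5 held E-boxes at 215, 157 and 116 bases and a Maf core at 233 bases before its start, with 1 CG pair. In Syt3 E-boxes began 177 and 165 bases before the start, and in Sytl4 and Vamp8 none of these letters were found. A match describes the letters only, and factor binding was not measured in these libraries.

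Most members were transcribed, at levels much like those of other genes. In limma's moderated test of each gene against 1 RPKM, a level chosen as a round limit of clear transcription, 53 of the 75 tested members lay above it (70.7%) and 17 below it (22.7%), and 5 passed in neither direction. Over all 16919 genes tested the same test placed 65.0% above and 26.1% below. The median of the members' means was 6.998 RPKM, against 7.38 RPKM over all genes tested, and 44.0% of members exceeded a mean of 10 RPKM against 44.3% of genes. A member had a mean over 100 RPKM in 4 cases, and these were Syt13, Vamp8, Sytl4 and Snap47. The members made up 0.377%, 0.320%, 0.415% and 0.411% of the summed RPKM in replicates 1 to 4.

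**Figure D1:**
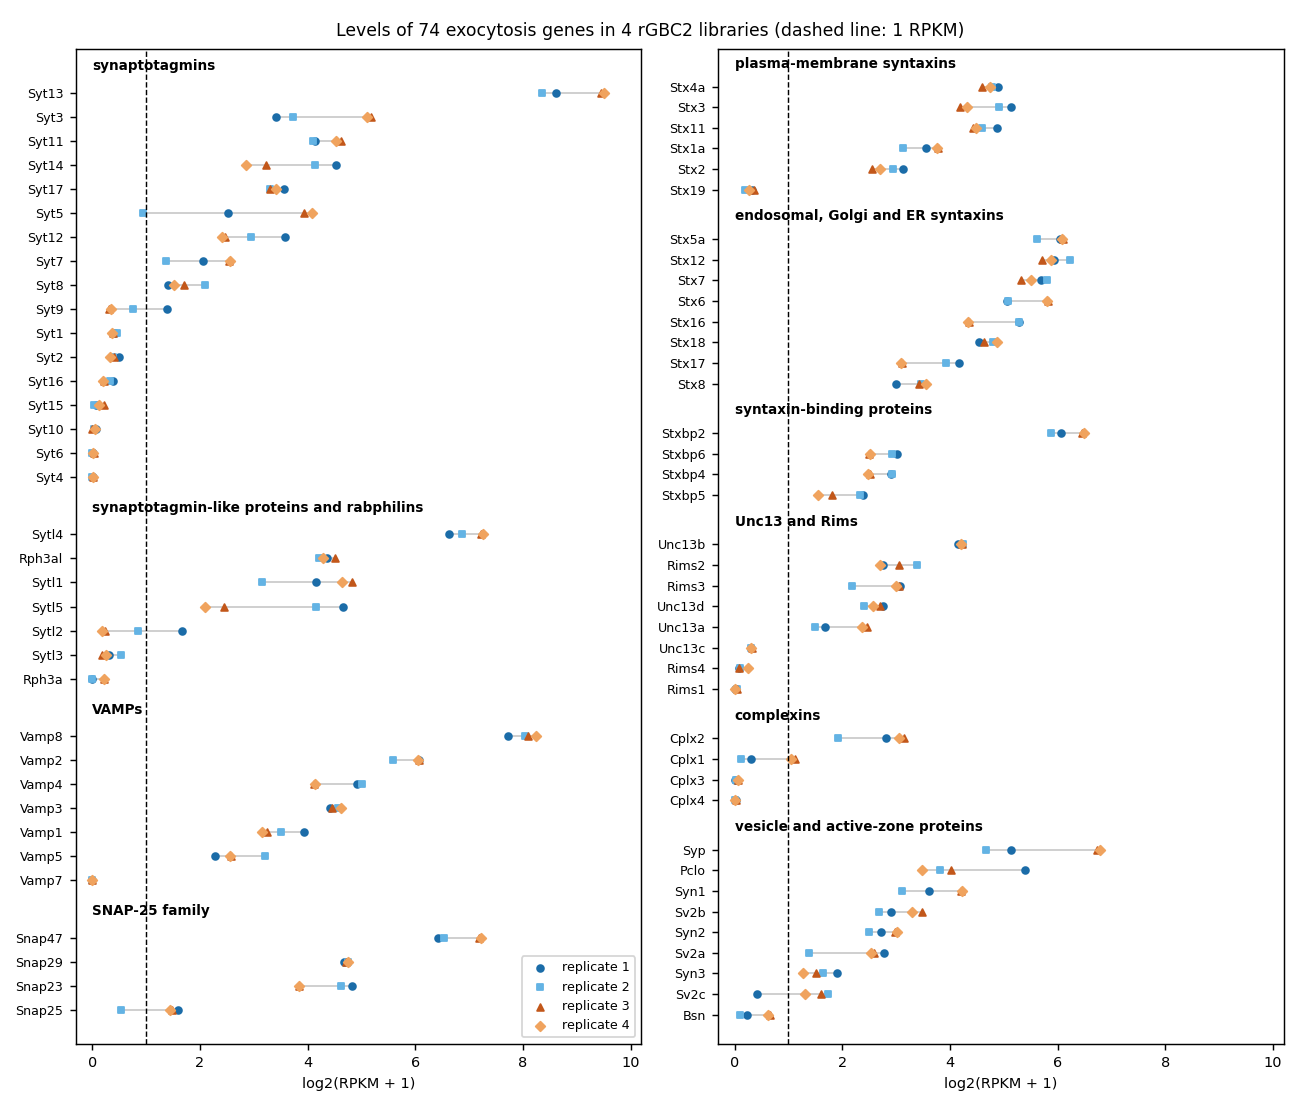
Level of 74 of the genes as log2(RPKM + 1) on the horizontal axis, grouped by role, with 1 point per library and a grey line from the lowest to the highest library. Syt13 and Vamp8 stand farthest to the right, while Syt4, Syt6 and Cplx4 sit near 0, left of the dashed line at 1 RPKM.

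Among the VAMPs, the SNAREs of the vesicle side, Vamp8 was the most abundant. Vamp8, known from endosomal fusion and from granule release in exocrine and mast cells, measured 210, 262, 273 and 302 RPKM across replicates 1 to 4, or 262 ± 38.2 RPKM (SD, n = 4), and above 1 RPKM (limma, adjusted p = 2.29e-07). It was lowest in replicate 1 and made up 61.2% to 71.9% of the family's summed RPKM. Vamp2, the synaptobrevin of synaptic vesicles and insulin granules, was at 65.8, 47, 65.7 and 65.3 RPKM (limma, adjusted p = 3.17e-07). Replicate 2 was the low library, and the other 3 nearly coincided. Vamp2 gave 12.3% to 19.1% of the family's sum. The transcripts lie in mm9 on chromosome 6 from 72335215 to 72340661 (Vamp8) and chromosome 11 from 68902030 to 68905883 (Vamp2).

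Vamp4, a SNARE of the trans-Golgi network, was at 29.3, 31.1, 16.3 and 16.5 RPKM, lower in replicates 3 and 4. Vamp3, the cellubrevin of recycling endosomes, varied least, at 20.3, 22.7, 20.8 and 23.5 RPKM. Vamp1, a close relative of Vamp2, had a mean of 10.3 ± 2.86 RPKM and Vamp5 one of 5.49 ± 1.93 RPKM (SD, n = 4). All 6 tested VAMPs lay above 1 RPKM. Vamp7, which serves late endosomes and lysosomes, was listed at 0 in every library. Its row lies on the unplaced contig X_random, and all 69 rows of the table on such contigs were listed at 0 in all 4 libraries, so the listing carries no measurement of Vamp7.

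On the target-membrane side, the SNAP-25 family was dominated by Snap47 and not by the neuronal member. Snap47, a widely expressed relative of SNAP-25, was at 85.3, 91.4, 144 and 149 RPKM, with replicates 3 and 4 above replicates 1 and 2 (limma, adjusted p = 7.27e-07). Its share of the family's sum was 61.2%, 64.8%, 78.2% and 78.4% in replicates 1 to 4. Snap29, which acts in endosomal and autophagosomal fusion, was nearly constant at 24.5, 25.8, 25.2 and 25.9 RPKM. Its coefficient of variation of 2.46% was the smallest among members with a mean of at least 1 RPKM. The Snap29 span shares 315 bases with Pi4ka on the opposite strand, which was at 26.51 to 34.15 RPKM. Reads in that stretch could not be separated without strand information. Snap23, the relative used by many non-neuronal cells, was at 27.4, 23.5, 13.3 and 13.3 RPKM, lower in replicates 3 and 4.

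Snap25, the SNARE of neurons and endocrine granules that botulinum toxin A cleaves, was at 2.01, 0.45, 1.8 and 1.74 RPKM. Replicate 2 was the low library, at an estimated 21.0 reads against 93.9 to 122 in the others. The test placed Snap25 on neither side (limma, adjusted p = 0.256), whereas without replicate 2 it lay above 1 RPKM (limma, adjusted p = 0.0161). Snap47 lies in mm9 on chromosome 11 from 59220652 to 59263458 and Snap25 on chromosome 2 from 136539186 to 136608164.

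Of the 6 plasma-membrane syntaxins described, 5 lay above 1 RPKM and 1, Stx19, below. Stx4a (syntaxin 4), the general plasma-membrane syntaxin, was at 28.7, 26.6, 23.2 and 25.9 RPKM, or 26.1 ± 2.30 RPKM (SD, n = 4). Stx3, the apical syntaxin of epithelia, was at 34.1, 29.1, 17.3 and 18.9 RPKM, lower in replicates 3 and 4. Stx11, known from granule release in cytotoxic lymphocytes, was at 28.3, 23.02, 20.6 and 21.4 RPKM. Each of these 3 passed the test (limma, adjusted p = 4.04e-07, 7.60e-06 and 8.59e-07), and their mean shares of the group's sum were 28.7%, 26.6% and 25.5%. Stx3 was the highest of the 3 in replicates 1 and 2, and Stx4a in replicates 3 and 4.

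Stx1a, the syntaxin of neuronal and insulin granule release, was lower, at 10.8, 7.78, 12.7 and 12.5 RPKM (limma, adjusted p = 1.82e-05), with its lowest value in replicate 2. Stx2 (epimorphin) had a mean of 6.18 ± 1.24 RPKM (SD, n = 4). Stx19 was at 0.15 to 0.28 RPKM, and lies within a span shared with Arl13b on the opposite strand, from which its reads could not be separated without strand information.

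The syntaxins of the endosomes, Golgi and endoplasmic reticulum were present without exception, with 8 of 8 above 1 RPKM and means from 9.37 to 61.7 RPKM. Stx5a (syntaxin 5), of the ER-to-Golgi route, was at 65.0, 48.3, 67.1 and 66.4 RPKM, lowest in replicate 2. Stx12, of recycling endosomes, was at 60.01, 74.4, 51.3 and 58.0 RPKM, highest in replicate 2. Stx7, of late endosomes, was at 50.8, 54.8, 39.1 and 44.7 RPKM. These 3 were the highest of the group (limma, adjusted p = 2.87e-07, 2.83e-07 and 3.26e-07). Stx6, of the trans-Golgi network, was higher in replicates 3 and 4, with 55.5 and 54.4 RPKM against 32.3 and 32.9 RPKM, while its partner Stx16 was lower there, with 19.5 and 19.2 RPKM against 37.7 and 37.7 RPKM. Stx17, the autophagosomal syntaxin, had a mean of 11.6 ± 4.74 RPKM (SD, n = 4).

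Of the syntaxin-binding proteins, the 4 described lay above 1 RPKM. Stxbp2 (Munc18-2), the partner of Stx3 and Stx11, was at 65.4, 58.1, 86.6 and 88.6 RPKM (limma, adjusted p = 4.17e-07), lowest in replicate 2. Stxbp6 (amisyn) was at 7.07, 6.60, 4.63 and 4.73 RPKM (limma, adjusted p = 0.000178), Stxbp4 had a mean of 5.59 ± 1.11 RPKM and Stxbp5 (tomosyn), an inhibitor of SNARE assembly, one of 3.17 ± 1.14 RPKM (SD, n = 4). These 3 were lower in replicates 3 and 4 than in replicates 1 and 2.

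Synaptotagmin transcripts consisted mostly of Syt13, a form that lacks the calcium-binding residues of the classical sensors. Syt13 reached 391, 325, 698 and 729 RPKM across the libraries and ranked 108, 189, 69 and 68 among all 20377 genes. Replicates 3 and 4 lay above replicates 1 and 2, and the share of Syt13 in the summed RPKM of the 17 synaptotagmins was 82.6%, 82.7%, 87.1% and 88.0%. Its mean of 536 ± 207 RPKM (SD, n = 4) was above 1 RPKM (limma, adjusted p = 9.14e-07). The gene lies in mm9 on chromosome 2 from 92755258 to 92796208.

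Next came Syt3, a calcium sensor of high affinity, at 9.64, 12.3, 35.4 and 33.2 RPKM (limma, adjusted p = 0.000209), and Syt11, which does not bind calcium, at 16.6, 16.2, 23.6 and 22.1 RPKM (limma, adjusted p = 2.34e-06). In both genes replicates 3 and 4 exceeded replicates 1 and 2. Syt5 showed the same order with a wider range, from 0.92 RPKM in replicate 2 to 16.0 RPKM in replicate 4 (limma, adjusted p = 0.0215). The call for Syt5 was lost without replicate 1, 3 or 4, with limma adjusted p of 0.0562, 0.0584 and 0.0560. This call was also lost with replicates 3 and 4 averaged (limma, adjusted p = 0.0626) and in replicates 1 and 2 alone (limma, adjusted p = 0.215). The opposite order was seen in Syt14, at 22.2, 16.6, 8.35 and 6.21 RPKM, and in Syt12, at 10.9, 6.72, 4.50 and 4.33 RPKM. Syt17 varied little, with a mean of 9.54 ± 0.935 RPKM (SD, n = 4).

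Of Syt7 and Syt9, both sensors tied to insulin release, Syt7 was the higher. Syt7, the high-affinity sensor of beta and alpha cells, was at 3.19, 1.59, 4.80 and 4.87 RPKM (limma, adjusted p = 0.00638). Taken from replicates 1 and 2 alone it did not pass (limma, adjusted p = 0.0697). Syt9 was at 1.63, 0.70, 0.24 and 0.28 RPKM and fell on neither side of the limit (limma, adjusted p = 0.195). Without replicate 1 its mean of 0.713 RPKM became 0.407 RPKM, below 1 RPKM (limma, adjusted p = 0.00945). Syt8 had a mean of 2.27 ± 0.724 RPKM (SD, n = 4) and did not pass in replicates 1 and 2 alone (limma, adjusted p = 0.0625).

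The 7 synaptotagmins below 1 RPKM were Syt1, Syt2, Syt4, Syt6, Syt10, Syt15 and Syt16. Syt1, the fast sensor of brain synapses, was at 0.35, 0.38, 0.30 and 0.29 RPKM, which is an estimated 35.1 to 45.8 reads a library, and Syt2, its relative, at 0.42, 0.30, 0.33 and 0.25 RPKM. Syt4, a brain and islet form, was at 0.01 RPKM or listed at 0. With fewer than 3 estimated reads in each library, the 4 members Syt4, Syt6, Syt10 and Cplx4 were at the limit of detection.

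Of the Rab27-binding synaptotagmin-like proteins and rabphilins, 4 of 7 lay above 1 RPKM and 2 below. Sytl4 (granuphilin), which docks insulin granules and restrains their fusion, was at 97.3, 115, 148 and 152 RPKM (limma, adjusted p = 3.12e-07). It was highest in replicates 3 and 4 and gave 60.7% to 76.6% of the group's sum. Rph3al (Noc2), a Rab effector needed for hormone release, was at 19.4, 17.5, 21.6 and 18.6 RPKM (limma, adjusted p = 7.82e-07), a coefficient of variation of 9.12%. Its relative Rph3a (rabphilin) was listed at 0 in replicates 1 and 2 and stood at 0.16 RPKM in replicates 3 and 4. On that transcript a count of 0 allows up to 0.0299 and 0.0328 RPKM in replicates 1 and 2.

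Sytl1 was at 16.9, 7.89, 27.4 and 24.1 RPKM, highest in replicates 3 and 4 (limma, adjusted p = 0.000113). Sytl5 had the reverse order, at 24.3, 16.9, 4.44 and 3.25 RPKM, and lay above 1 RPKM over all 4 libraries (limma, adjusted p = 0.00482). Sytl2 followed the same order, at 2.18, 0.80, 0.18 and 0.14 RPKM, without a call (limma, adjusted p = 0.369). Without replicate 1 its mean was 0.373 RPKM in place of 0.825 RPKM, and it then lay below 1 RPKM (limma, adjusted p = 0.0213). Sytl4 and Sytl5 lie on chromosome X in mm9, from 130470924 to 130516322 and from 9462748 to 9571669.

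Priming factors were present at moderate levels, with 5 of 8 Unc13 and Rims genes above 1 RPKM and 3 below. Unc13b (Munc13-2) was almost the same in each library, at 16.8, 18.0, 17.8 and 17.4 RPKM, and gave 41.5% to 48.2% of the group's sum (limma, adjusted p = 7.15e-07). Rims2, the Rims form of endocrine granules, was at 5.73, 9.42, 7.33 and 5.51 RPKM, highest in replicate 2, and Rims3 at 7.46, 3.52, 7.35 and 6.98 RPKM, lowest in replicate 2 (limma, adjusted p = 0.000111 and 0.000366). Unc13d (Munc13-4), known from lymphocyte and mast cell granules, was at 5.79, 4.29, 5.49 and 4.98 RPKM (limma, adjusted p = 0.000153). Unc13a (Munc13-1), the main form at brain synapses, was at 2.22, 1.83, 4.53 and 4.15 RPKM (limma, adjusted p = 0.00691). Unc13c, Rims1 and Rims4 were those below, with means of 0.242, 0.015 and 0.095 RPKM.

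Complexin transcripts were nearly all Cplx2, a form abundant in brain. Cplx2 was at 6.02, 2.77, 7.90 and 7.34 RPKM (limma, adjusted p = 0.00102) and made up 86.4% to 96.5% of the group's sum. Cplx1 was at 0.23, 0.08, 1.18 and 1.06 RPKM, and no call was made over all 4 libraries (limma, adjusted p = 0.134). It lay below 1 RPKM without replicate 3 (limma, adjusted p = 0.0387). Both genes were lowest in replicate 2 and highest in replicates 3 and 4. The retinal forms Cplx3, at 0.01, 0.02, 0.04 and 0.04 RPKM, and Cplx4, at 0.02 RPKM or listed at 0, lay below 1 RPKM.

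Proteins of vesicles and active zones lay above 1 RPKM in 7 of 9 cases. Syp (synaptophysin), an integral protein of small synaptic-like vesicles, was at 33.9, 24.5, 105 and 109 RPKM, so that replicates 3 and 4 did not overlap replicates 1 and 2 (limma, adjusted p = 7.72e-05). Its share of the group's sum came to 31.5%, 39.8%, 63.9% and 67.8% across the libraries. Pclo (Piccolo), an active-zone scaffold that also acts in insulin release, was at 41.1, 13.1, 15.2 and 10.1 RPKM (limma, adjusted p = 0.000192). Its mean of 19.9 RPKM was 12.8 RPKM without replicate 1. Bsn (Bassoon), its relative, lay below 1 RPKM at 0.17, 0.07, 0.58 and 0.54 RPKM (limma, adjusted p = 0.00273).

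The synapsins coat vesicles and tether them to actin. Syn1 was at 11.3, 7.68, 17.4 and 17.6 RPKM (limma, adjusted p = 5.78e-05), Syn2 had a mean of 6.04 ± 1.17 RPKM and Syn3 one of 2.04 ± 0.559 RPKM (SD, n = 4), and all 3 passed. Each synapsin span contains a Timp gene on the opposite strand (Timp1, Timp4 and Timp3), and Timp3 reached 91.2 to 101.4 RPKM, so overlapping reads of the pair could not be separated without strand information. Of the Sv2 proteins, transporters of the vesicle membrane, Sv2b had a mean of 7.70 ± 2.16 RPKM and Sv2a one of 4.33 ± 1.88 RPKM, both above 1 RPKM, the latter not in replicates 1 and 2 alone (limma, adjusted p = 0.0845). Sv2c was at 0.34, 2.33, 2.05 and 1.49 RPKM without a call (limma, adjusted p = 0.317), and lay above 1 RPKM when replicate 1, its low library, was left out (limma, adjusted p = 0.0209).

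**Figure D2:**
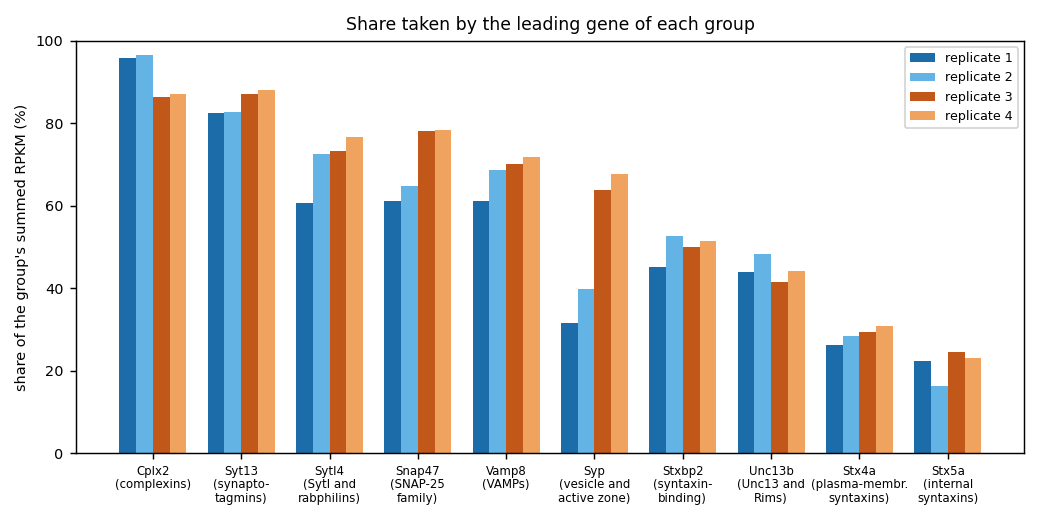
Share of each group's summed RPKM, in percent, taken by its leading gene (the largest mean share), with 1 bar per library. Syt13 took 82.6% to 88.0% of the synaptotagmin sum, whereas Stx4a took 26.2% to 30.7% among the plasma-membrane syntaxins.

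Related genes were then compared within each library. In each pair the gene named first is known from neurons, islets or hormone granules or is a calcium-binding form, and the other is a relative, in some pairs also a neuronal or endocrine one. For 10 pairs the difference of log2(RPKM + 1) was taken in each library. An exact permutation test, two-sided, flipped the signs of the 4 differences. With 4 libraries that test cannot give a p below 0.125, and every pair gave 0.125, also after Benjamini-Hochberg adjustment over the 12 pairs computed, because the direction was the same in 4 of 4 libraries for each. None can therefore pass 0.05, and the values are given as a description.

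In 6 pairs the gene named first was the lower. Syt7 minus Syt13 was -6.85 ± 0.20 (SD, n = 4), the largest difference on this scale, at 115-fold. The RPKM ratio of Syt7 to Syt13 was 0.00816, 0.00489, 0.00687 and 0.00668 in replicates 1 to 4, and a pseudocount of 0.1 RPKM gave -7.21. Snap25 minus Snap23 was -3.01 ± 0.82, and the RPKM ratio of Snap25 to Snap23 was 0.0733, 0.0192, 0.135 and 0.131 in replicates 1 to 4. With a pseudocount of 0.1 in place of 1 RPKM that difference became -3.70. Vamp2 minus Vamp8 was -2.09 ± 0.33, with ratios of 0.313, 0.179, 0.240 and 0.216. So even the abundant Vamp2 stayed under Vamp8 in each library.

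Stx1a minus Stx4a was -1.20 ± 0.37 and Stx1a minus Stx3 was -1.08 ± 0.69 (SD, n = 4). The ratio of Stx1a to Stx3 came to 0.317, 0.267, 0.734 and 0.662 across the libraries. Both genes contributed to that change, since Stx1a was higher and Stx3 lower in replicates 3 and 4. Unc13a minus Unc13d was -0.61 ± 0.45, with ratios of 0.383, 0.427, 0.825 and 0.833.

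In the other 4 pairs the gene named first was the higher. Sytl4 minus Sytl2 was 6.25 ± 0.99 (SD, n = 4), with RPKM ratios of 44.6, 144, 822 and 1088 in replicates 1 to 4. Cplx2 minus Cplx1 was 2.09 ± 0.30, with ratios of 26.2, 34.6, 6.69 and 6.92. In both pairs the ratio thus differed widely between replicates 1 and 2 and replicates 3 and 4. The largest ratios rest on low levels, of Sytl2 in replicates 3 and 4 and of Cplx1 in replicates 1 and 2. Both genes were under 1 RPKM there, where relative counting error is larger. Rph3al exceeded Rph3a 135-fold in replicate 3 and 116-fold in replicate 4. Against 3 reads of Rph3a, which was listed at 0 in replicates 1 and 2, Rph3al was at least 650-fold higher in replicate 1 and at least 533-fold higher in replicate 2. The log2 difference of that pair, 4.23 ± 0.12, depends on the pseudocount of 1 RPKM and so does its small SD. With a pseudocount of 0.1 RPKM it became 6.91, Sytl4 minus Sytl2 became 7.69 and Cplx2 minus Cplx1 became 3.38, since the scale compresses differences of low genes. Vamp2 minus Vamp3 was 1.43 ± 0.29.

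**Figure D3:**
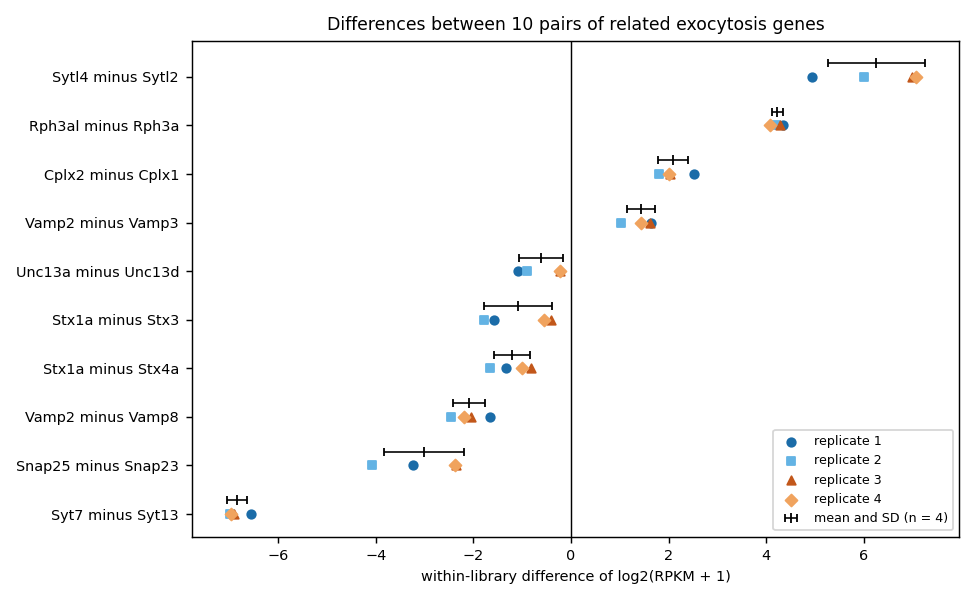
Within-library difference of log2(RPKM + 1) between the genes of each of 10 pairs, with 1 point per library and a bar for the mean and SD (n = 4). Points of each pair lie on 1 side of 0, from -6.85 on average for Syt7 minus Syt13 to 6.25 for Sytl4 minus Sytl2.

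Other genes of the fusion pathway, outside the families above, were mostly transcribed. Of 45 such genes 37 lay above and 2 below (limma), against 65.0% and 26.1% of all genes tested, and their median mean was 20.8 RPKM. The highest were Ykt6, a lipid-anchored Golgi SNARE, with 140 ± 15.1 RPKM, and Vti1b, an endosomal SNARE, with 133 ± 15.96 RPKM (SD, n = 4). They were followed by Mlph (melanophilin), a Rab27 effector, with 113 ± 31.0 RPKM, Gosr2, a Golgi SNARE, with 106 ± 18.9 RPKM and Napa (alpha-SNAP), which recruits the SNARE-recycling ATPase, with 102 ± 25.3 RPKM. The lowest were Rab3b with 0.778 ± 0.364 RPKM and no call (limma, adjusted p = 0.198), Cadps2, a granule priming factor, at 0.17, 0.81, 0.08 and 0.03 RPKM, and Otof (otoferlin), the sensor of hair cells, at 0.02 RPKM or less. Cadps2 and Otof were the 2 below, Cadps2 not in replicates 1 and 2 alone (limma, adjusted p = 0.0835).

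The members varied between libraries in both directions. Among the 75 tested, replicates 3 and 4 were both above replicates 1 and 2 for 25 members (33.3%), and both below for 23 (30.7%), while 24.2% and 38.5% of all genes tested did so. By role, 5 of 9 vesicle and active-zone proteins were above and 1 below, and 3 of 4 complexins above and 0 below. Of 17 synaptotagmins 6 were above and 5 below, of 7 plasma-membrane syntaxins 1 and 4, and of 8 internal syntaxins 2 and 4. The complexin count includes Cplx3, with a mean of 0.0275 RPKM. These groups are small, and none was tested against the shares over all genes. The widest shifts, as the mean log2(RPKM + 1) of replicates 3 and 4 minus that of replicates 1 and 2, were 2.28 for Syt5, 1.86 for Syp and 1.57 for Syt3, and -2.15 for Sytl5 and -1.30 for Syt14. Unc13b and Snap29 shifted by 0.01 and 0.02.

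Base composition moved with this pattern. Among the 55 members with a mean of at least 1 RPKM, the 20 that were higher in replicates 3 and 4 had a median transcript GC content of 53.9%, and the 18 that were lower had 46.4%. Across these 55 genes the Spearman correlation of GC content with the shift was 0.55, and across 11842 genes of the table at that level it was 0.57. With transcript length it was -0.16 and -0.25. The points share the same 4 libraries, the correlations describe genes and not replicates, and the part of base composition in the pattern was not tested.

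**Figure D4:**
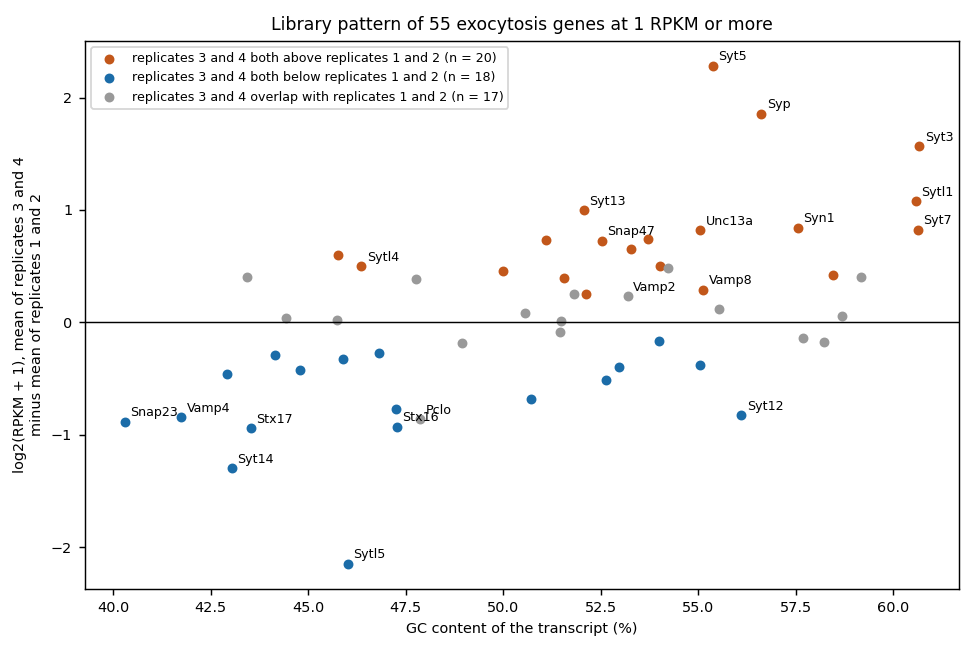
Shift in log2(RPKM + 1) from replicates 1 and 2 to replicates 3 and 4 (vertical axis) against transcript GC content in percent (horizontal axis), for the 55 members with a mean of at least 1 RPKM, coloured by whether the pairs of libraries overlap. Syt5, Syp and Syt3 lie at the top, above 55% GC, and Sytl5 lies lowest, with a shift of -2.15.

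Neurons and blood cells also use these genes, and their markers were read in the same libraries. Of 11 neuronal markers, among them Snap25 itself, 6 lay above 1 RPKM and 2 below, against 65.0% and 26.1% of all genes tested. The summed level of these markers was 259 to 412 RPKM, lowest in replicate 2 and highest in replicate 3. The 6 above were Mtap2 (Map2) at 72.9 to 128 RPKM, Tubb3 at 76.8 to 197 RPKM, Nefl at 51.6 to 68.9 RPKM, Stmn2 at 7.52 to 36.1 RPKM, Dlg4 at 7.98 to 14.5 RPKM and Rbfox3 at 1.07 to 2.80 RPKM. Below were Gap43 and Camk2a, of which Gap43 was at 0.10 RPKM or less and Camk2a at 0.06 RPKM or less. No call was made for Snap25, for Elavl3 at 0.78 to 2.73 RPKM or for Elavl4 at 0.21 to 1.29 RPKM. The part of neuronal transcripts in the levels of Syp and Syn1 was not tested. Of 4 leukocyte markers none lay above 1 RPKM and 3 lay below, with sums of 0.28 to 0.43 RPKM and Cd3e listed at 0. The mast cell markers Cpa3 and Fcer1a were listed at 0 in every library, and Kit lay below 1 RPKM, at 0.16 to 0.47 RPKM. Vamp8, Stx11 and Unc13d stood at the levels given above, and the part of mast cell transcripts in them was not tested. The biliary keratins Krt7 and Krt19 were at 466 to 802 and 72.0 to 103 RPKM, and the part of biliary transcripts in the levels of Vamp8, Stx3 and Stxbp2 was not tested. Sox9 was at 0.61 to 1.2 RPKM and Epcam at 161 to 239 RPKM.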

How the data were processed

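RNA of sorted insulin reporter-positive cells was sequenced in 4 libraries of 1 group. The authors deposited RPKM values, rounded to 2 decimals, with 1 RefSeq transcript per gene symbol. CASAVA 1.8.2, Bowtie and build mm9 were used, per the submitters' processing notes. Which counter and strand setting made them is not given in the sources used here. The table has 6 further per-sample columns that match no sample of this series and were not used. Table starts count from 0, since 896 of 993 short olfactory receptor spans were then multiples of 3, and 1 was added.

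Depth was estimated from those 993 genes (under 1100 bases), as the depth at which all low values lay within 0.0051 RPKM of whole reads. Finer steps at greater depth meet this too, so the lowest range of depths was used and the depth with the smallest mean deviation in it was taken. Reads per gene used GENCODE M21 transcript lengths, matched by RefSeq identifier for 98.1% of genes. Each gene's log2(RPKM + 1) was tested against 1 RPKM with limma 3.58.1 in R 4.3.3 (moderated variances with a trend, two-sided, Benjamini-Hochberg over 16919 genes, leaving out those listed at 0 throughout, threshold 0.05). The test was checked on simulated data with independent libraries. That check does not cover the closeness of replicates 3 and 4. Scripts named the 3 highest members of each role, the genes of the pairs, members whose highest library exceeded the lowest over 4-fold with the lowest at 1 RPKM or more, and the 5 highest and 3 lowest other exocytosis genes; further members were named after their values were seen. Members and lists were chosen with earlier results of these data known. Alternatives were pseudocount 0.1, a filter at 0.1 RPKM, no trend, upper-quartile scaling and each library left out. Results for some members are not reported here, though counts over all members include them. After the data were seen, replicates 1 and 2 alone, 3 and 4 alone, and 3 and 4 averaged were added.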

Additional observations from a re-analysis of the deposited data

Results flagged for a closer look

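In 6 of the 73 members described that were read, and in 1 of the 10 pair differences, the value of 1 library stood far from the other 3, by Dixon's ratio of the gap to the range against its 95% critical value. These members make up 8.22% of those described, and the same rule marked 12.6% of the genes tested. Chance flags about 1 in 20 groups of 4 independent samples, and replicates 3 and 4 stood closer to each other than the other pairs. Replicate 2 was the low library for Vamp2 (47 RPKM against 65.3 to 65.8), Stx5a (48.3 against 64.97 to 67.1 RPKM) and Rims3 (3.52 against 6.98 to 7.46 RPKM). Replicate 1 was the high library for Pclo (41.1 against 10.1 to 15.2 RPKM) and for the log2 difference of Syt7 from Syt13 (-6.55 against -6.98 to -6.91). The remaining cases rest on few reads. Rims4 was at 0.19 RPKM in replicate 4 against 0.06 to 0.07 RPKM and Syt4 at 0 in replicate 2 and 0.01 RPKM in the others.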

How the results depend on the processing

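No paired analysis was possible because the samples form 1 group. The counts of 53 members above and 17 below 1 RPKM, and of 37 and 2 other exocytosis genes, stayed within 1.5 times under each alternative except the filter at a mean of 0.1 RPKM. That filter leaves the lowest genes untested, and 7 members and 1 other exocytosis gene then lay below. All 10 pair differences described kept their direction under each alternative run. This had to follow, since each pair had the same direction in every library, and it adds no support. On the log2 scale, the distance of Cplx1 from 1 RPKM changed sign to 0.0835 with replicates 3 and 4 alone, and those of Sytl2 and Syt9 to 0.259 and 0.0803 with replicates 1 and 2 alone. The cause was not tested. Of the values recomputed for single genes, 888 kept their side of the test, 10 newly passed, 9 no longer passed and 3 changed sign. Values of a few reads, as for Syt4, Syt6, Syt10 and Cplx4, are limited by depth.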
